A study of Macaca mulatta with 5 samples.

Results

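The regions described here are places inside the rhesus monkey autosomes where the pull-down of methylated DNA gave a peak in both cell types. They were chosen from the authors' peak lists: peaks on chromosomes 1 to 18 and 20, shorter than 1000 bp, with a midpoint more than 5 Mb from either chromosome end, that overlapped a peak of the other list by at least 1 bp. The rule took 22576 of 48838 peaks in embryonic stem cells (rESC) and 22546 of 83528 peaks in cells labelled R_NSCP1. They form 22594 overlapping pairs, of 33499 in the whole series, and 22259 separate regions once overlapping peaks are merged. In 152 rESC and 117 R_NSCP1 members the partner lay outside the rule, because it was longer or nearer the end, and these peaks enter no pair.

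Both MeDIP samples were Macaca mulatta genomic DNA. The first is labelled rESC and the other R_NSCP1, a name the labels do not spell out. The cell type label of both reads embryonic stem cell, and the series concerns neural fate. Each cell type had 1 MeDIP library and 1 long noncoding RNA (lncRNA) library, so no difference below has a replicate check, and intervals cover counting error only. The mixed input library of the series was not analysed here, and the peak lists were called without a control. A peak by itself therefore does not show enrichment of methylated DNA over input.

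In methylated DNA immunoprecipitation (MeDIP) an antibody against 5-methylcytosine pulls down sheared DNA, and enriched places appear as stacks of sequenced fragments. Methylcytosine in vertebrates lies mainly at CpG sites, and the pull-down favours stretches with many methylated CpGs over sparse ones. In mammals most CpGs outside active promoters and enhancers are methylated in both pluripotent and differentiated cells.

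Membership rests on the 2 peak lists, so the pileups, lengths, summits and shares that follow describe the pairs and test nothing. Among interior peaks under 1000 bp, 64.5% of 35004 rESC peaks (exact binomial interval 64.0% to 65.0%) and 36.7% of 61499 R_NSCP1 peaks (36.3% to 37.0%) had a partner. The R_NSCP1 list was longer. With R_NSCP1 cut to its 35004 strongest interior peaks, as many as in rESC, the shares were 50.1% in rESC and 49.9% in R_NSCP1. Most partners are single, so lists of equal number give nearly equal shares whatever the data. Almost all sharing was between single peaks: in 21942 pairs neither peak had another partner. There were 170 rESC peaks that each overlapped 2 R_NSCP1 peaks, with a median length of 557 bp against 302 bp for their partners. Another 164 R_NSCP1 peaks overlapped 2 or 3 rESC peaks, with a median length of 681 bp against 307 bp.

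Peaks with a partner stood higher than interior peaks without one in the same library. Pileup is the number of fragments stacked at the summit. It is given here per 1000000 tags (PPM), and the libraries held 8690541 tags in rESC and 9071243 in R_NSCP1. In rESC the median was 1.5 PPM (quartiles 1.27 to 2.07) with a partner and 1.15 (0.921 to 1.38) without. In R_NSCP1 it was 1.76 (1.32 to 2.43) with a partner and 1.21 (0.992 to 1.54) without. Peaks at the shortest possible length, the fragment length, made up 16.0% of shared and 40.9% of unshared rESC peaks, and 8.63% and 28.9% of R_NSCP1 peaks. Peaks of low q without a partner were more numerous in R_NSCP1, whose list was longer. At a −log10 q from 10 up there were 5271 unshared interior peaks in R_NSCP1, 13.5% of 38953, and 447 in rESC, 3.60% of 12428. Each library was called alone, so the same q cutoff need not mean the same pileup in both.

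The stacks behind a typical pair were small. The median pileup was 13 fragments in rESC (percentiles 5 and 95, 8 and 38) and 16 in R_NSCP1 (8 and 45). The lowest were 5 and 6 fragments, and the highest 446 and 432, at the same place. A single fragment was worth 0.115 PPM in rESC and 0.110 in R_NSCP1, so at a pileup of 13 a few fragments move the ratio visibly. Each library has its own summit, so the ratio of a pair compares the highest stack of each library and not the same base.

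Pileup in PPM was slightly higher in R_NSCP1 at the typical pair. The median log2 ratio, R_NSCP1 over rESC, was 0.13, or 1.09-fold, with quartiles of -0.15 and 0.42 over the 22594 pairs. R_NSCP1 was higher in 63.4% of pairs (62.8% to 64.0%). Over all 33499 overlapping pairs of the series the median was 0.16, so relative to that shift the interior pairs stood at -0.03, the opposite sign. The interior pairs are 67.4% of the pairs that set that shift, so a value near 0 was largely fixed in advance. The direction of this small difference therefore depends on whether tags or the pairs themselves set the scale. The fragment length set by the peak caller, 249 bp in rESC and 236 bp in R_NSCP1, also bears on pileup. Pileup was not scaled for that length, and its part in the ratio was not tested. Fold enrichment over the local background, which is the authors' value and is scaled within each library, had a median log2 ratio of 0.16.

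Most pairs differed little between the 2 libraries. A peak had to be called in both, which leaves out places with a low stack in either, so this was partly set by the rule. Of the 22594 pairs, 18209 or 80.6% lay within 1.5-fold. At least 1.5-fold higher in R_NSCP1 were 3349 pairs, 14.8%, where 15.2% of all pairs of the series passed. At least 1.5-fold higher in rESC were 1036 pairs, 4.59%, where 4.24% of all pairs passed. These shares are close to those of the series as a whole. Both interior shares fell by over 1.5 times, to 8.07% and 1.80%, in the 5651 pairs with a −log10 q of at least 10 in both peaks. By fold enrichment in place of pileup they were 11.04% and 1.61%. After centring on the median of all pairs the split was 8.36% towards R_NSCP1 and 9.32% towards rESC, with no surplus on the R_NSCP1 side. The interior pairs are most of the pairs that set this centre, so a split near balance was largely fixed in advance. At 2-fold, 558 pairs stood higher in R_NSCP1 (2.47%, against 2.55% of all pairs) and 115 in rESC (0.509%, against 0.516%).

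**Figure D1:**
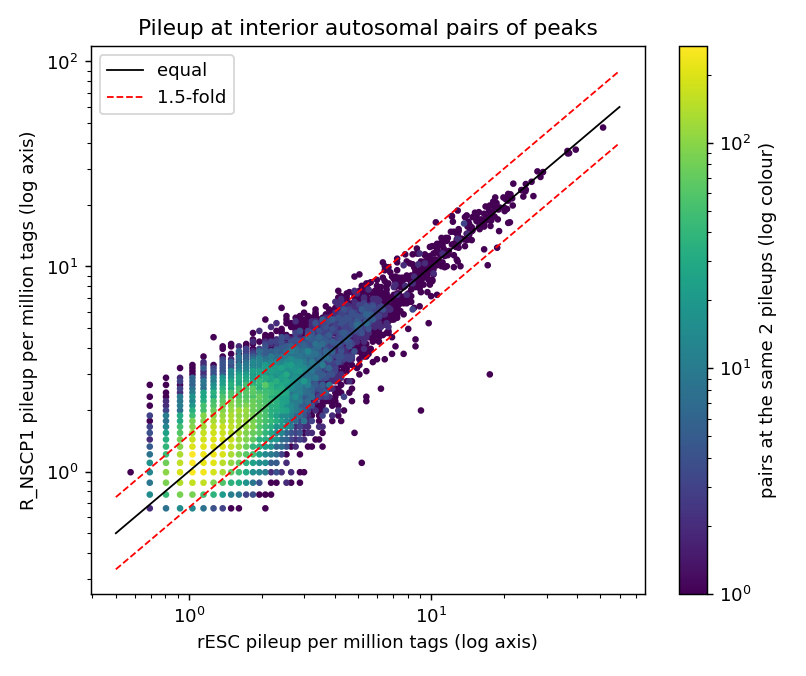
Pileup in PPM in rESC (x axis) and R_NSCP1 (y axis) at the 22594 interior pairs, both axes logarithmic. Points are combinations of whole-number pileups coloured by the number of pairs, the black line marks equal values and the red dashed lines a 1.5-fold difference. The cloud is widest at low pileup and narrows along the line of equal values at high pileup.

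The counting error of each ratio was set beside the difference. An exact binomial 95% interval of the ratio lay above 1 in 506 pairs, 2.24% (2.93% of all pairs of the series), and below 1 in 94 pairs, 0.416% (0.531% of all pairs). Such an interval compares these 2 libraries and not the cell types. Over 22594 intervals at 95%, some leave out 1 without any difference, so the 506 and 94 pairs are not a list of detected changes. For the other pairs the interval included 1.

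The spread of the ratio was no wider than counting error alone would give, except in the strongest pairs, where it was slightly wider. Over all pairs the SD of the log2 ratio was 0.43, and the SD from the counts alone, taken from the inverse pileups, was 0.54. Peaks had to pass a threshold in both libraries to be paired, which leaves out places with a low stack in either library. The part of this selection in the narrower spread was not tested. With a mean pileup (geometric mean of both libraries) from 20 to under 30 fragments the values were 0.43 and 0.43 over 3264 pairs. From 30 to under 50 fragments they were 0.35 and 0.33 over 1312 pairs, and at 50 fragments or more 0.27 and 0.25 over 633 pairs.

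The median ratio was not the same at every level. It was -0.06 below 10 fragments (3289 pairs), 0.08 from 10 to under 15, 0.22 from 15 to under 20 and 0.25 from 20 to under 30. It then fell back to 0.17 from 30 to under 50 fragments and 0.07 at 50 or more. The middle classes also held the largest share of pairs at least 1.5-fold higher in R_NSCP1, 21.6% from 15 to under 20 fragments, against 5.50% below 10 and 2.37% at 50 or more. The level is made from the same pileups as the ratio, so these classes are a description.

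**Figure D2:**
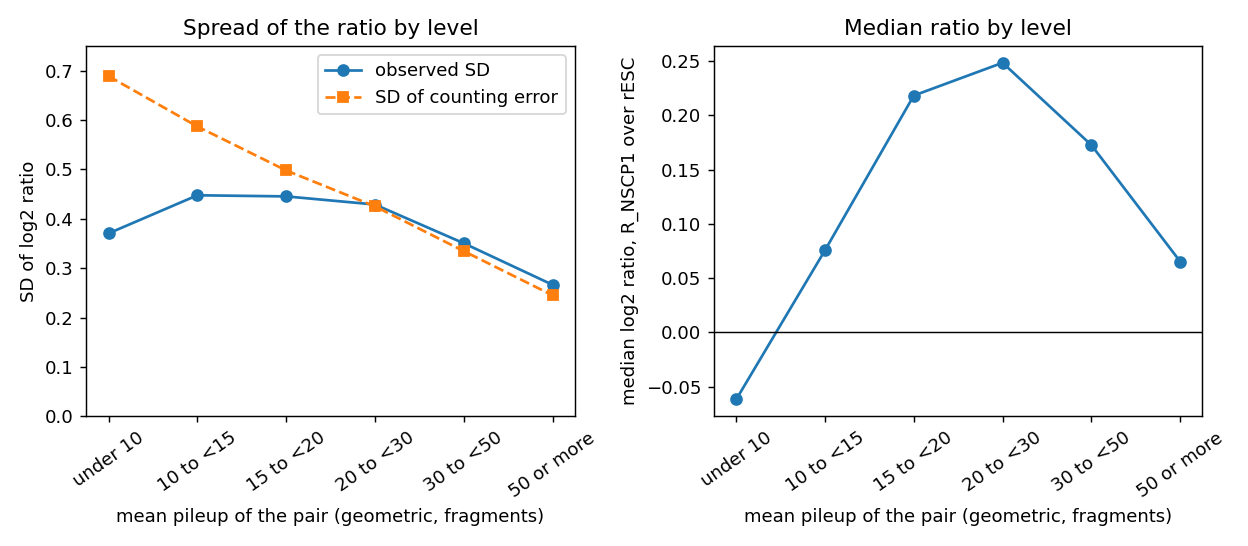
Left, SD of the log2 ratio (R_NSCP1 over rESC) of interior pairs in 6 classes of mean pileup, as observed (circles) and from counting error alone (squares). Right, the median log2 ratio in the same classes. The observed SD lies below the counting SD up to 20 fragments and meets it from there, and the median ratio is highest from 20 to under 30 fragments.

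The levels of the libraries ran together across pairs. Log2 pileup in PPM correlated (Pearson r 0.821, Spearman rho 0.725) over the 22594 pairs, which share 2 libraries and were selected for being called in both. Part of the strongest pairs had a high local background, the stack that the peak caller expected from the region holding the peak. With no control it came from the same library, so a strong peak raises its own local background. The median local background was 1.12 fragments in rESC and 1.16 in R_NSCP1. It reached 5 fragments in either library at 506 pairs, which included 247 of the 633 with a mean pileup of 50 or more. Over the other 22088 pairs the Pearson r was 0.781. In the 386 of them with a mean pileup of 50 or more the SD of the log2 ratio was 0.25 beside 0.27 from counting. The part of the local background in the level of these pairs was not tested.

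The 5 pairs with the highest pileup in both libraries were nearly equal between the libraries. On chromosome 6 from 172980406 to 172981134 the rESC peak held 446 fragments, 51.3 PPM. Its R_NSCP1 partner from 172980418 to 172981141 held 432, 47.6 PPM, a ratio of 0.928 (0.811 to 1.06). On chromosome 4 from 75095233 to 75096212 the pileups were 344 and 337, a ratio of 0.939 (0.805 to 1.09). These 2 places and the next 3 all had intervals that include 1.

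On chromosome 5 from 70512343 to 70512894 the pileups were 318 in rESC and 332 in R_NSCP1, and on chromosome 3 from 60944442 to 60945208 they were 323 and 324. On chromosome 17 from 27921907 to 27922576 they were 319 and 323. The summits of these 5 pairs lay 2 to 19 bp apart. All 5 had a high local background, which counts their own fragments. It ran from 13.2 fragments on chromosome 17 to 74.5 on chromosome 3 in rESC, and from 13.4 to 74.7 in R_NSCP1. At the chromosome 3 place the fold enrichment in rESC was therefore only 4.29, while on chromosome 17 it was 22.5.

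Among pairs of single partners, those with the largest ratio towards R_NSCP1 had weak rESC peaks. On chromosome 3 the rESC peak from 192809424 to 192809672 held 6 fragments (0.690 PPM) and the R_NSCP1 peak from 192809260 to 192809624 held 24 (2.65 PPM). The ratio was 3.83, with an interval from 1.53 to 11.5. On chromosome 9 from 30297803 to 30298051 the pileups were 7 and 26, a ratio of 3.56 (1.504 to 9.71). On chromosome 7 from 47386807 to 47387055 they were 8 and 29, a ratio of 3.47 (1.55 to 8.79). The rESC member was at the fragment length of 249 bp in all 3.

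The other two were a pair on chromosome 7 from 132902890 to 132903138, with 6 and 21 fragments (ratio 3.35, 1.31 to 10.2), and a pair on chromosome 9 from 35934282 to 35934758, with 7 and 24 (ratio 3.28, 1.37 to 9.03). In all 5 the local background was also higher in R_NSCP1, at 0.968 to 2.12 fragments. In rESC it was 0.721 at 4 of them and 1.05 at the chromosome 7 pair from 47386807. With no control this background counts the fragments of the peak itself, so it was partly fixed by picking a taller R_NSCP1 stack. The pairs were picked as extremes of 21942 ratios, so their sizes are a description of the tail.

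Towards rESC the largest ratio among single partners was shared by a pair on chromosome 6 and one on chromosome 11. On chromosome 6 the rESC peak from 106251262 to 106251654 held 18 fragments and the R_NSCP1 peak from 106251274 to 106251509 held 6, so rESC was 3.13-fold higher (1.19 to 9.64). On chromosome 11 the rESC peak from 114063350 to 114063937 held 42 fragments (4.83 PPM) and the R_NSCP1 peak from 114063453 to 114063827 held 14 (1.54 PPM). The fold was also 3.13 (1.68 to 6.21), and it rests on the most fragments among these 5 pairs. Its fold enrichment over local background, as the authors give it, was 10.99 in rESC and 6.27 in R_NSCP1.

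The remaining 3 lay on chromosome 6 from 80435261 to 80435585 with 23 and 8 fragments (3.001-fold higher in rESC, 1.30 to 7.76), on chromosome 12 from 36993279 to 36993681 with 25 and 9 (2.90-fold, 1.31 to 7.06) and on chromosome 15 from 45159520 to 45159877 with 22 and 8 (2.87-fold, 1.23 to 7.46). A pair on chromosome 20 tied with the last and was not taken by the order used. The summits of the first chromosome 6 pair lay 185 bp apart and those of the second 212 bp. In these 2 pairs the stacks compared are therefore not at the same place. In all 5 pairs named towards rESC the local background was higher in rESC, at 0.946 to 2.91 fragments against 0.714 to 1.39 in R_NSCP1. It counts the fragments of the peak itself, so this too was partly fixed by how the pairs were picked.

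Partners that split can give a large ratio without a change in level. The largest ratio of any pair, 5.88-fold higher in rESC, was on chromosome 13, where the rESC peak from 87491087 to 87491951 held 152 fragments and the R_NSCP1 peak from 87491599 to 87491902 held 27. The same rESC peak also overlapped an R_NSCP1 peak from 87490907 to 87491476 with 154 fragments and a summit 17 bp from its own, at a ratio of 0.971 (0.771 to 1.22). This pair was looked up after its value was seen.

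The pairs were close in length. The median length was 302 bp in rESC (quartiles 261 to 387) and 320 bp in R_NSCP1 (267 to 417), and the median difference within a pair was 5 bp. In 12490 pairs, 55.3%, the lengths lay within 50 bp of each other. Peaks cannot be shorter than the fragment length the peak caller estimated, 249 bp in rESC and 236 bp in R_NSCP1. Above that floor the median was 53 bp in rESC and 84 bp in R_NSCP1. In 606 pairs, 2.68%, both peaks sat at the floor, which gives a difference of -13 bp. The median pileup of those pairs was 9 fragments in each library.

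Length moved with level. In pairs at least 1.5-fold higher in R_NSCP1 the median length was 284 bp for rESC peaks and 365 bp for their partners. In pairs at least 1.5-fold higher in rESC they were 345 bp and 262 bp. Across all pairs the length difference and the log2 ratio, both taken from the same stacks, had a Pearson r of 0.372 and a rank correlation (Spearman) of 0.448. A taller stack passes the calling threshold over a longer stretch, so the length is no separate measure of change. At least 200 bp longer were 1105 peaks in R_NSCP1 (4.89%) and 579 in rESC (2.56%).

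Summits of a pair lay a median of 35 bp apart, with quartiles of 15 and 74 bp. They were within 50 bp in 14028 pairs (62.1%), within 100 bp in 18921 (83.7%) and on the same base in 271. In 93.8% of pairs both summits lay inside the overlap. The R_NSCP1 summit was at the higher coordinate in 51.0% of the pairs whose summits differed (exact interval 50.3% to 51.7%), with a median signed shift of 1 bp. Overlaps were broad, since the partner covered a median of 91.9% of the rESC peak and 88.1% of the R_NSCP1 peak, and in 21055 pairs each peak covered at least 50% of the other.

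Summits were nearest in the strongest pairs. Their median distance fell from 48 bp below 10 fragments to 29 bp from 30 to under 50 and 14 bp at 50 fragments or more, where 80.4% lay within 50 bp. Longer peaks had wider shifts. The median was 56 bp where both peaks were at least 500 bp long (1687 pairs) and 33 bp where both were under 300 bp (6537 pairs). Summits more than 249 bp apart, the rESC fragment length, occurred in 667 pairs (2.95%).

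**Figure D3:**
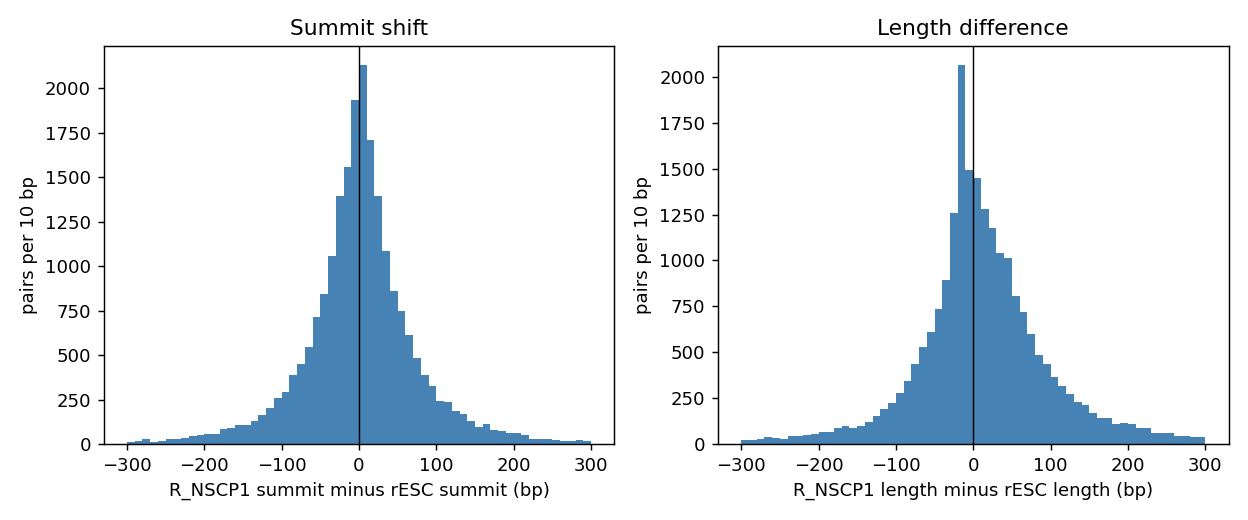
Left, position of the R_NSCP1 summit minus that of the rESC summit in bp; right, R_NSCP1 length minus rESC length in bp; bars count interior pairs per 10 bp between -300 and 300 bp. Summit shifts spread to both sides of 0 about evenly, and the length difference has a spike at -13 bp, the difference between the fragment lengths of the libraries.

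The regions were spread unevenly along the chromosomes. They numbered 8.99 per Mb over 2477 Mb of interior. Per chromosome they ranged from 6.55 per Mb on chromosome 5 to 13.9 on chromosome 10. Whole windows of 1 Mb held a median of 8 regions (percentiles 5 and 95, 2 and 20). There were 51 windows with none and 136 with at least 20, and the densest 247 windows, 10% of them, held 24.3% of the regions. The densest, on chromosome 3 from 33000001 to 34000000, held 50 regions, followed by chromosome 1 from 5000001 to 6000000 with 44 and chromosome 6 from 139000001 to 140000000 with 43.

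Density fell with distance from the chromosome ends even inside the interior. It was 16.3 regions per Mb from 5 to under 10 Mb from the nearer end, 10.6 from 10 to under 20 Mb, 8.61 from 20 to under 40 Mb and 7.49 beyond. The median log2 ratio went the same way, at 0.18, 0.14, 0.13 and 0.11, each with quartiles about as wide as in the whole set. So did the median pileup in PPM, which was 1.73 in rESC and 1.98 in R_NSCP1 in the outermost class and 1.5 and 1.65 in the innermost. Within classes of mean pileup the median was higher in the outermost than the innermost class in 4 of 5. The medians were 0.09 and -0.06 below 10 fragments, 0.14 and 0.08 from 10 to under 15, 0.26 and 0.24 from 20 to under 30, and 0.21 and 0.11 at 30 or more. From 15 to under 20 they were 0.20 and 0.22. The means of the outermost and innermost class were -0.011 and -0.013 below 10 fragments, and 0.14 and 0.11 from 10 to under 15. They were 0.22 and 0.21 from 15 to under 20 and 0.25 and 0.22 from 20 to under 30. At 30 fragments or more they were 0.19 and 0.12. Pileup takes whole numbers, so medians move in steps, and the part of level in the gradient was not tested.

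The pairs excluded for lying within 5 Mb of an end had higher values still. Those 5915 pairs had medians of 2.19 PPM in rESC and 2.54 in R_NSCP1, and a median log2 ratio of 0.22. The 1167 pairs of chromosome 19 had a median log2 ratio of 0.22 as well, and the 1108 pairs of chromosome X had 0.09. The summit distance hardly differed, at 35 bp inside, 36 bp near the ends, 38 bp on chromosome X and 43 bp on chromosome 19. None of these differences was tested, since each set rests on the same 2 libraries.

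Every one of the 19 chromosomes had a median log2 ratio above 0 on the tag scale, from 0.09 on chromosome 5 to 0.22 on chromosome 16. Relative to the median of 0.16 over all pairs, those on chromosomes 10 and 16 lay above, that on chromosome 1 lay at it and the other 16 lay below. Chromosomes with more regions per Mb had higher ratios. Over the 19 chromosomes Pearson r was 0.824 and Spearman rho 0.696, points that share both libraries, and chromosomes 10 and 16, the densest, also had the highest ratios (0.20 and 0.22). The share of interior rESC peaks with a partner was lowest on chromosomes 12 and 5 (58.7% and 59.1%) and highest on chromosome 10 (70.9%). On chromosome 16 it was 66.5%, below chromosomes 20 (68.7%), 14 (66.9%) and 1 (66.8%). The R_NSCP1 share ran from 34.5% on chromosome 2 to 38.0% on chromosome 10, with 36.2% on chromosome 16. In 1 Mb windows with at least 10 pairs the median was above 0 in 818 of 949 and below 0 in 131, and it ranged from -0.41 to 0.64. The median reached 1.5-fold in 3 windows.

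**Figure D4:**
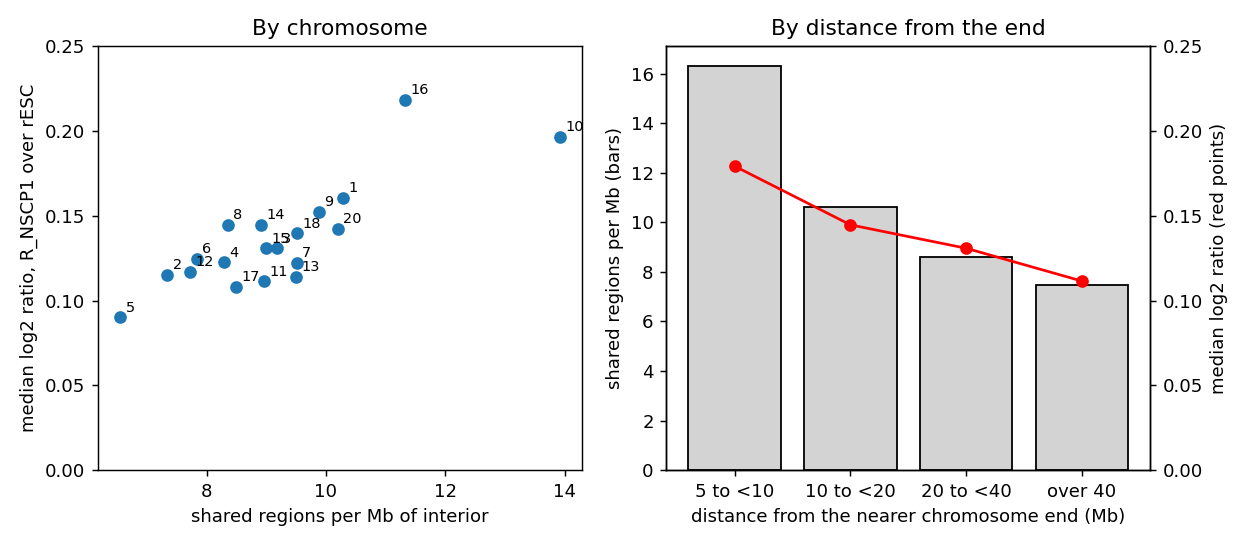
Left, median log2 ratio (R_NSCP1 over rESC, tag scale) against shared regions per Mb for the 19 chromosomes, numbered. Right, shared regions per Mb (bars, left axis) and median log2 ratio (red points, right axis) by distance from the nearer chromosome end. Chromosomes 10 and 16 lie apart at high density and ratio, and both measures fall from 16.3 per Mb and 0.18 nearest the ends to 7.49 per Mb and 0.11 beyond 40 Mb.

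Neighbouring regions were a median of 60.4 kb apart and a mean of 110.9 kb. Within 10 kb of another region lay 4704, or 21.1%. Among regions of pairs with a −log10 q of at least 10 in both peaks, which are fewer, the share was 12.2%. Interior peaks without a partner, set only against their own kind, were within 10 kb of another in 8.04% of rESC peaks and 28.6% of R_NSCP1 peaks. Those sets differ in density (5.02 and 15.7 per Mb), so the shares cannot be ranked. Of the unshared peaks, 15.7% in rESC and 18.5% in R_NSCP1 lay within 10 kb of a shared region.

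Gaps between shared regions were scarce from 1 to 5 kb. Under 1 kb there were 512 gaps, from 1 to 5 kb 146 per kb, from 5 to 10 kb 297 per kb and from 10 to 20 kb 244 per kb. The lowest class was 3 to 4 kb, with 110 gaps, and the step came at 5 kb, from 179 gaps between 4 and 5 kb to 313 between 5 and 6 kb. The same dip was present in the unshared peaks of each library, with 20.2 and 73.2 gaps per kb from 1 to 5 and from 5 to 10 kb in rESC, and 410 and 761 in R_NSCP1. Per the file headers, the caller took the regional background over 10000 bp, which reaches 5 kb to either side of a position. The part of that window in the dip was not tested.

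**Figure D5:**
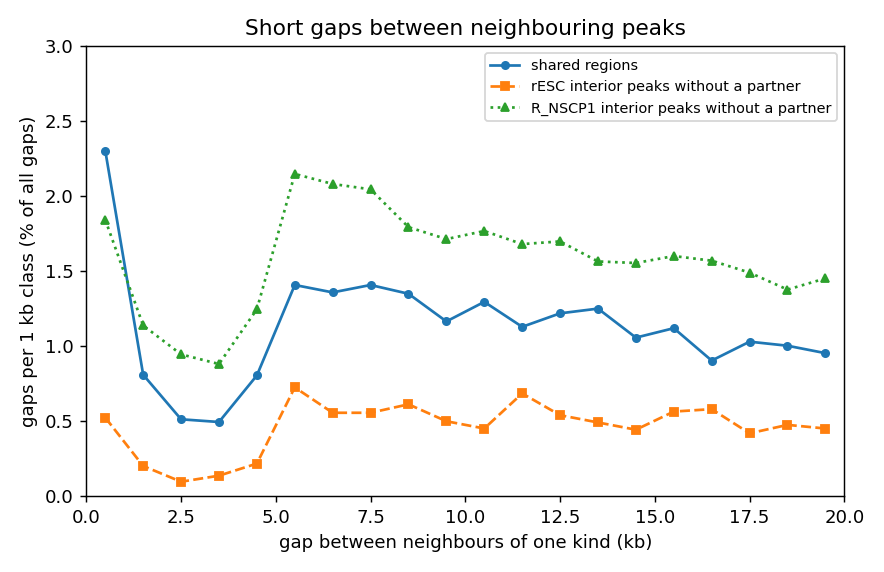
Percentage of all gaps that fall in each 1 kb class from 0 to 20 kb (points at the middle of each class), for shared regions and for interior peaks without a partner in each library, each against its own kind. All 3 lines dip between 1 and 5 kb and step up at 5 kb, and shared regions have the highest value under 1 kb (2.30%).

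Chaining regions at gaps of at most 10 kb gave 2122 chains of 2 or more, of which 1796 held exactly 2 and 21 held at least 5. The longest, on chromosome 3 from 33070590 to 33138133, packed 24 regions into 67.5 kb. Its pileup in PPM ran from 7.13 to 26.5 in rESC (median 14.6) and from 6.95 to 25.2 in R_NSCP1 (median 14.6). The libraries were nearly equal there, with a median log2 ratio of 0.00 and a range of -0.26 to 0.19. The local background was also high, with medians of 30.6 and 29.0 fragments, against 1.12 and 1.16 at the median pair. This background counts the fragments of the chain's own peaks.

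The next chain, on chromosome 6 from 139308336 to 139362389, held 11 regions in 54.1 kb at far lower levels. Medians were 2.36 PPM in rESC and 2.98 in R_NSCP1, the median log2 ratio was 0.32 (range -0.26 to 0.89), and 9 of its 12 pairs were higher in R_NSCP1. Its local background was 4.07 and 5.003 fragments. A chain of 9 regions on chromosome 15 from 5155825 to 5186224 had medians of 10.5 and 11.1 PPM on a background of 14.0 and 13.5, and a median log2 ratio of 0.04. Another chain held 9 regions and was not taken by the order used. Without pairs whose local background reached 5 fragments, 19.7% of regions were within 10 kb of another.

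Ratios of neighbouring pairs were only weakly alike. Between single-partner pairs next to each other the log2 ratios correlated with a Pearson r of 0.227 at up to 1 kb (358 neighbours), 0.0958 from 1 to 10 kb (2014), 0.0260 from 10 to 100 kb (11815) and 0.000326 beyond. Levels were shared far more strongly: log2 rESC pileup had an r of 0.822 at up to 1 kb and 0.627 from 1 to 10 kb, which includes the chains just described. Beyond 10 kb that value was 0.0784 and then 0.0448. The ratio of a single pair carries a counting error as wide as its spread, so low correlations of single ratios do not show that neighbours differ.

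Few regions lay at listed lncRNAs. Of the 22259 regions, 132 (0.593%) overlapped the body of a lncRNA, and lncRNA bodies covered 0.611% of the interior. Unshared interior peaks were in lncRNA bodies at 0.515% in rESC and 0.537% in R_NSCP1. Within 1000 bp of a lncRNA start lay 26 regions, near 27 lncRNAs. The lncRNA levels played no part in choosing the regions, and they are given in FPKM, and differences are on the log2(FPKM + 0.1) scale, positive where R_NSCP1 was higher.

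At those 27 lncRNAs the median difference was 0.89 (quartiles -0.97 to 2.16), where it was 0.09 over all 1395 lncRNAs detected at an FPKM of at least 0.1 in either library and 0.16 over the 1004 that start in the autosome interior. With a pseudocount of 1 in place of 0.1 the median at the 27 was 0.58. At least 2-fold higher in R_NSCP1 were 12 (34.7% of all lncRNAs passed) and in rESC 6 (30.8% of all). The 123 lncRNAs with a shared region in the body had a median difference of 0.56. At least 2-fold higher in R_NSCP1 were 49 of them, 39.8%, and in rESC 34, 27.6%, shares close to the 37.5% and 31.1% of interior lncRNAs. With 1 library per cell type there is no test, and 27 lncRNAs leave wide quartiles.

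Over the 27 lncRNAs, which stand at 26 positions, the ratio of the pair near the start and the lncRNA difference were barely related (Pearson r 0.142, Spearman rho 0.0959). In no pair near a start did the interval of the ratio leave out 1. One lncRNA met the level set for naming, an FPKM of at least 10. This minus-strand transcript spans 6996941 to 6997886 on chromosome 7, and its FPKM was 3.95 in rESC against 18.2 in R_NSCP1. Its body holds a pair from 6997244 to 6997557 in rESC and 6997169 to 6997528 in R_NSCP1, with 20 and 31 fragments, a ratio of 1.48 (0.820 to 2.75).

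Pairs at least 1.5-fold apart stood near 5 of the 27 lncRNAs, and these were looked up after their values were seen. All 5 lncRNAs were at least 2-fold higher in rESC, where 30.8% of all lncRNAs passed. Of these 5, 2 are transcripts at the same position with the same pair. The pair was higher in R_NSCP1 at 2 lncRNAs (14.8% of all interior pairs passed) and higher in rESC at 3 (4.59% passed). On chromosome 6 a lncRNA from 137377597 to 137383601 stood at 9.03 in rESC and was listed at 0 in R_NSCP1, beside a pair with 35 and 23 fragments (ratio 0.630, 0.355 to 1.10).

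Pairs lower in R_NSCP1 also lay at a lncRNA on chromosome 7 from 145010328 to 145041865, with 18 and 9 fragments and FPKM values of 4.44 and 1.81, and at one on chromosome 1 from 98426069 to 98427202, with 15 and 9 fragments and FPKM values of 4.196 and 0.863. On chromosome 13 the pair near 2 transcripts from 62146099 to 62153246 was higher in R_NSCP1, with 20 and 33 fragments. Both transcripts stood at 3.87 in rESC and were listed at 0 in R_NSCP1. Lower lncRNA levels in R_NSCP1 stood beside both lower and higher pileup, but every one of these ratio intervals includes 1, so no direction of the pairs is shown.

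The limits of the rule cut through a continuous range. The longest rESC member was 997 bp, on chromosome 11 from 129300501 to 129301497 with 2.19 PPM, and the shortest shared interior rESC peak left out was 1000 bp, on chromosome 15 from 21735799 to 21736798 with 6.44. In R_NSCP1 the values were 999 bp on chromosome 1 from 115689587 to 115690585 (3.42 PPM) and 1000 bp on chromosome 6 from 13932428 to 13933427 (6.61). The rESC member nearest an end lay 5001056 bp from it on chromosome 14, at 2.53 PPM, and the nearest one left out lay 4998981 bp from the end of chromosome 6, at 1.27.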

How the data were processed

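The submitters' processing notes name BWA 0.7.7 and MACS2. The build of the genome is not given in sources used here. MACS 2.1.0.20150731 called each MeDIP library alone, per the file headers, with no control, a q cutoff of 0.01, 1 tag per position and a regional background over 10000 bp. The deposited pileup signal counts fragments and is not scaled between libraries. The deposited fold enrichment is a ratio of pileup to local background, and the deposited −log10 p and −log10 q refer to that background. The local background was recovered as pileup plus 1, divided by fold enrichment, less 1. The lncRNA table holds FPKM made by the authors, of unknown depth, and its deposited p-value column was not used.

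Pileups were scaled to 1000000 header tags. Tags after filtering equalled total tags, so scaling was compared with none. Intervals are exact binomial, 95%, and cover counting error only. Named pairs follow a rule: the 5 largest ratios each way among single partners, the 5 highest in both and the 3 longest chains, ties taken in order of chromosome name. Members and lists were chosen with earlier results of these data known. Both file types use the same chromosome names, so a shared build was assumed for lncRNAs. No sequence or gene annotation of that build was used. Steps were tested on simulated data. Software was scipy 1.17.1, pandas 2.3.3, numpy 2.4.6, matplotlib 3.10.9 and Python 3.11.15.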

Additional observations from a re-analysis of the deposited data

How the results depend on the processing

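No paired analysis was possible because each cell type had 1 library. The median log2 ratio of 0.13 became 0.19 with no scaling by tags, 0.16 with fold enrichment, 0.11 with −log10 q from 10 up in both (5651 pairs) and 0.12 below 500 bp, and centring on all pairs gave -0.030. The percentages at least 1.5-fold higher in R_NSCP1 and rESC, 14.8 and 4.59, were 2.47 and 0.509 at 2-fold, 19.4 and 3.73 with no scaling, 8.36 and 9.32 centred, 11.04 and 1.61 by fold enrichment and 8.07 and 1.80 with −log10 q from 10 up. The median summit distance of 35 bp was 34 bp for single partners, 33 bp where each peak covered at least 50% of the other and 25 bp with −log10 q from 10 up, where the median length difference was 1 bp. The share of regions near another, 21.1% at 10 kb, was 9.29% at 5 kb, 66.1% at 50 kb, 12.2% with −log10 q from 10 up and 19.7% with local background under 5, a setting chosen after seeing the data. Shares of peaks with a partner in rESC and R_NSCP1 were 60.3% and 34.3% at 50% coverage, 76.8% and 33.8% with −log10 q from 10 up in both lists and 50.1% and 49.9% with equal numbers of peaks. With equal numbers the shares were nearly equal in advance. The cause of the changes in these shares was not tested. The median lncRNA difference near starts was 0.58 with a pseudocount of 1. Pileups of 5 to 20 fragments limit what a single pair can show.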
